A study of Homo sapiens with 6 samples.

Results

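The TRIM genes encode the tripartite motif proteins, most of which are ubiquitin ligases. They were taken here as every gene whose only symbol in the probe annotation begins with TRIM and a digit, which gave 55 of the 18417 genes tested. Of these, 54 are protein-coding and 1, TRIM67-AS1, is an antisense RNA gene that meets the rule by its name alone. The cells were YCC3, a line established from human gastric cancer. They received either CTNNB1 siRNA (3 arrays) or a control siRNA with no target (3 arrays). The time from transfection to RNA was 48 hours. CTNNB1 encodes beta-catenin, the co-activator of Wnt signalling, and an siRNA is a short duplex RNA that leads to the breakdown of a matching mRNA. All 6 samples share the cell line, the medium and the transfection, and no untransfected cells were profiled among them. The labels name biological replicates without saying whether these were separate cultures, so the p-values reflect only how far these samples differ among themselves, which may be technical. The labels do not give the siRNA sequences or say how many siRNAs were used, and CTNNB1 loss is represented by that reagent in 1 cell line.

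Most TRIM proteins have a RING domain, which recruits the ubiquitin-conjugating enzyme, followed by B-box zinc fingers and a coiled coil through which the proteins pair. The C-terminal domain differs between subfamilies and sets what each ligase binds. Many members act in innate immunity, either by attacking a virus directly or by tuning the sensors of viral RNA and DNA, and the genes of a subset are switched on by interferon. The interferon signal is carried to promoter elements, among them the ISRE. A list of interferon-responsive TRIM genes was therefore set against the other members.

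Values are log2 RMA signals, in which the probes of a gene are summarised after the arrays are scaled to a common distribution, so a change of 1 is a doubling of signal. Differences are CTNNB1 siRNA minus control siRNA, errors of a difference are standard errors (SE) of a limma fit over all genes, and a gene is called, or said to rise or fall, where its adjusted p is under 0.05. CTNNB1, the targeted gene, measured 11.80, 11.81 and 11.90 with control siRNA and 10.94, 11.06 and 11.20 with CTNNB1 siRNA, a change of -0.77 ± 0.10 (limma, adjusted p = 0.00267). Epithelial markers were bright in both groups, with EPCAM at 11.78 ± 0.11 and KRT8 at 13.57 ± 0.08 (SD, n = 3) under control siRNA. The gastric marker GKN1 was dim, at 2.61 ± 0.04 (SD, n = 3), below the median row of the array. TFF2, a further gastric marker, also lay below it, at 5.81 ± 0.02 (SD, n = 3). Of 17 leukocyte markers only CD68 was called, at 0.95 ± 0.14 (limma, adjusted p = 0.00547). CD68 was already bright under control siRNA, at 8.98 ± 0.27 (SD, n = 3). Of the 17 markers 14, including PTPRC at 2.58 ± 0.19 (SD, n = 3), lay below the median row under control siRNA. The summed linear signal of the leukocyte markers ranged from 5971 to 6461 over the control arrays and from 5574 to 5900 over the CTNNB1 siRNA arrays. Most of that sum is LYZ, a lysozyme gene also known from gastric epithelium, at 12.36 with control siRNA and a change of -0.28 ± 0.09. Over the list 15 of 17 changes were positive, with a median of 0.12, and the median marker measured 4.70 to 4.86 on the control arrays and 4.86 to 4.88 on the CTNNB1 siRNA arrays. Of 13 endothelial and fibroblast markers 10 had positive changes and 12 lay below the median row, and their summed signal was 391 to 425 against 425 to 447. TFF1 and CLDN4, which mark gastric and other epithelium, rose by 1.15 ± 0.11 and 0.61 ± 0.10. They were the only genes called of 10 epithelial and gastric markers (20%, against 4.72% of all genes), with a median change of 0.07. KRT18 went the other way, at -0.29 ± 0.10, and was not called. The part of these marker changes in the TRIM changes was not tested.

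With CTNNB1 siRNA a subset of the TRIM genes had higher signal. TRIM22, TRIM21, TRIM38, TRIM40, TRIM5, TRIM14, TRIM31, TRIM25 and TRIM56 rose, and TRIM37 fell. Of the 55 members 9 rose, or 16.4%, where 2.07% of all genes tested rose, and 1 member fell, where 2.65% of all genes fell. In either direction 10 members were called, against 4.72% of all genes, and 45 were not. Without CTNNB1 siRNA replicate 1 the call count was 6 members, where 283 of all 18417 genes were called instead of 870, and the count on the interferon list was 5 without that array or without control replicate 2. Over all genes 43.9% of calls were higher, and 56.3% after cyclic loess scaling, under which the member counts were again 9 higher and 1 lower. Of the 9 genes that rose, 8 belong to the interferon list, of which 10 genes were measured, and no gene of that list fell. Among the 45 members outside the list 1 rose, TRIM40, and 1 fell, TRIM37. The median change was 0.62 on the interferon list and 0.02 in the other members, with 0.006 over all genes tested. In these bulk samples fewer cells that express a gene cannot be told apart from less RNA per cell.

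**Figure D1:**
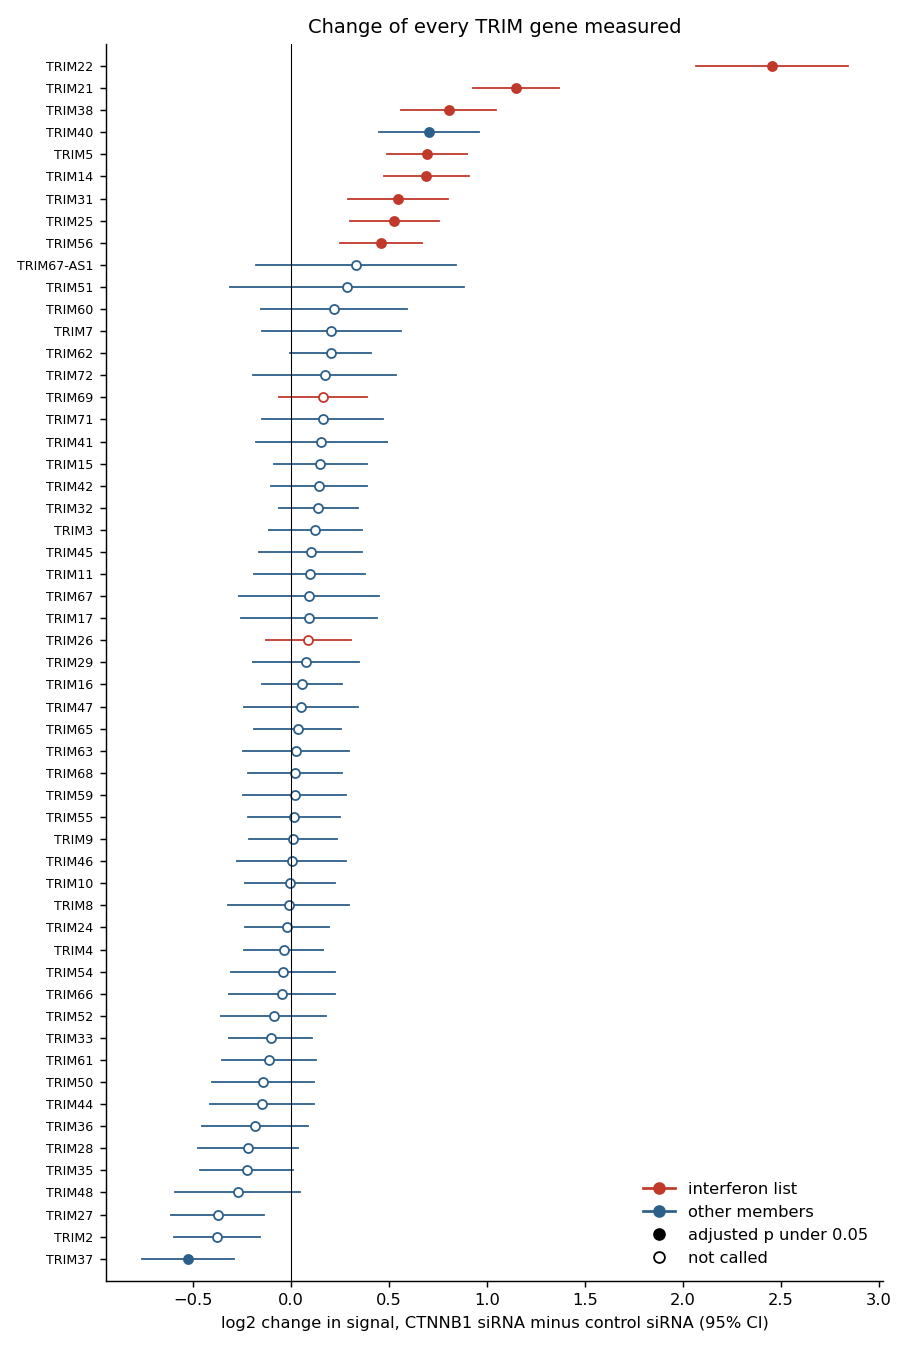
Log2 change in signal (CTNNB1 siRNA minus control siRNA, x axis) of the 55 TRIM genes in order of size, with 95% confidence intervals from the fit over all genes. Red marks the 10 genes of the interferon list and blue the other 45, and filled points have an adjusted p under 0.05. The filled points are TRIM22 to TRIM56 at the top and TRIM37 at the bottom, and TRIM69 and TRIM26 are the red open points.

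The upstream sequences of the TRIM genes were searched for the ISRE, an element through which interferon acts. Its part in the division between the interferon list and the rest was not tested. Promoter windows of 250 bases before to 50 bases after each start site were taken from RefSeq (GRCh38.p14) and were present for 43 members, including 9 of the 10 interferon-list genes. The exception on the list is TRIM22. An ISRE core, written GAAANNGAAA and searched on both strands, occurred in the windows of 5 of those 9 genes. Outside the list it occurred in 3 of the 34 genes with a window (8.82%). Of the 14239 genes tested with a window, 4.12% held it. The matches in the interferon-list genes are shown, 5′ to 3′ on the strand of each gene, with the ISRE core in capitals; read on that strand it appears as TTTC blocks where the match lies on the other strand.

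TRIM5 (chr11:5685075-5685131, minus strand): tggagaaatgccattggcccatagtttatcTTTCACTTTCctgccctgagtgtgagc
TRIM14 (chr9:98119223-98119278, minus strand): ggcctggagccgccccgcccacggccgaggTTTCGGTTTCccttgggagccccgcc
TRIM21 (chr11:4393663-4393692, minus strand): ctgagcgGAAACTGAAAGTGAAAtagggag
TRIM26 (chr6:30213555-30213630, minus strand): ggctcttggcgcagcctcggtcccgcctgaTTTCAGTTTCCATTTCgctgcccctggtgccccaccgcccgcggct
TRIM69 (chr15:44736436-44736505, plus strand): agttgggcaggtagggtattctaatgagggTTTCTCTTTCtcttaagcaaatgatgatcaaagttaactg

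In TRIM5 the core lay 27 to 18 bases before the start site and in TRIM14 26 to 17 bases before it, almost the same place. In TRIM21 a pair of overlapping cores lay 18 to 33 bases after the start, within the transcribed part. In TRIM26 overlapping cores lay farther out, 194 to 179 bases before the start, and in TRIM69 the core lay 62 to 53 bases before it. The presence of the core did not divide the list by its response. Of the 7 interferon-list genes that rose and have a window, 3 held a core (TRIM5, TRIM14 and TRIM21), and both list genes that were not called, TRIM26 and TRIM69, held one. Outside the list TRIM2, TRIM16 and TRIM44 held a core and were not called. A match is a run of letters and not a shown binding site, and the windows do not reach elements farther from the start.

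**Figure D2:**
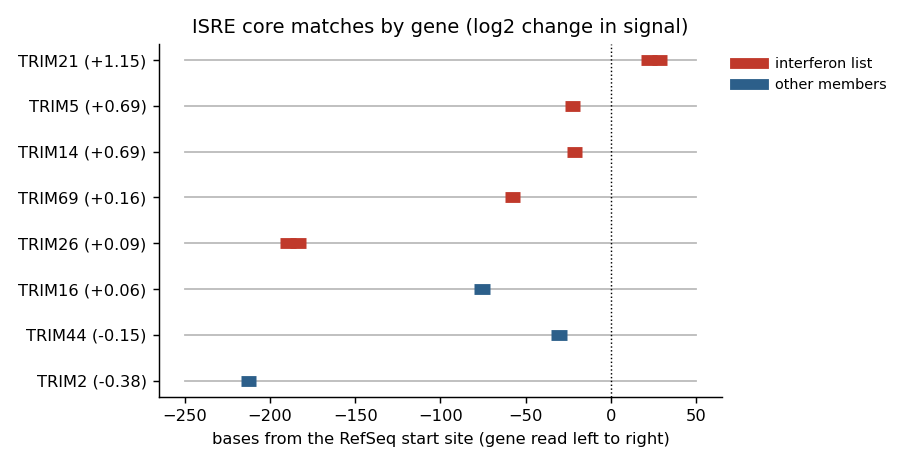
Positions of ISRE core matches (bars) in the promoter windows of the 8 TRIM genes that hold one, in bases from the RefSeq start site (x axis; dotted line at the start), with the log2 change in signal of each gene in brackets. Red marks the interferon list and blue the other members. The matches of TRIM5 and TRIM14 lie at nearly the same distance before the start, and that of TRIM2 is the farthest.

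A pair of other elements was searched in the same windows. The GAS element, TTCNNNGAA, known from promoters that answer to interferon gamma, was in no window of the 9 interferon-list genes and in 6.92% of the windows of all genes tested. TRIM40, the gene outside the list that rose, held a GAS element in both of its windows:

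TRIM40, first window (chr6:30136003-30136071, plus strand): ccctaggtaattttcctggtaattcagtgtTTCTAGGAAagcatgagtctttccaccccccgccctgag
TRIM40, second window (chr6:30136643-30136711, plus strand): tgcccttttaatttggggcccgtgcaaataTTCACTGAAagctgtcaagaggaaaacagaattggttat

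The element, in capitals, lay 107 to 99 bases before the start in the first window and 60 to 52 bases before it in the second. GAS elements were also in windows of 6 members outside the list that were not called. With TRIM40, 7 of the 34 members outside the list with a window held the element (20.6%), against 9.2% of all genes tested with a window. The TCF site through which beta-catenin acts, CTTTGAT or CTTTGAA on either strand, was in windows of 4 of the 43 members with a window (9.3%). Of all genes tested with a window 7.37% held the site. The 4 members were TRIM2, TRIM31, TRIM51 and TRIM69. Of these only TRIM31 was called, and it was higher. The part of the site in that change was not tested.

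The restriction factor genes on chromosome 11 gave the largest rise of the family. TRIM5, TRIM6, TRIM34 and TRIM22 follow one another there in the RefSeq gene order, and TRIM5 and TRIM22 are members with a row of their own. TRIM22 encodes an interferon-induced ligase that limits transcription of retroviruses. It measured 4.86, 4.36 and 4.26 with control siRNA and 6.95, 7.21 and 6.69 with CTNNB1 siRNA. All CTNNB1 siRNA arrays lay far above all control arrays, with a change of 2.45 ± 0.17 (limma, adjusted p = 2.50e-05). Its control signal lay below the median row of the array and was not shown to be above background, so no fold is given and the change is that of the measured signal only.

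TRIM5 encodes the cytoplasmic factor that binds the capsid of incoming retroviruses. Its signal was 7.77, 7.89 and 7.82 with control siRNA and 8.50, 8.56 and 8.49 with CTNNB1 siRNA. The arrays within each group lay close together and the groups were well apart, with a 1.61-fold rise (log2 change 0.69 ± 0.09, limma, adjusted p = 0.00267). Both calls held with any 1 array left out.

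TRIM21, which lies on the same chromosome outside that run, encodes the antibody receptor of the cytosol, which binds antibody-coated viruses and marks them for the proteasome. It measured 6.46, 6.53 and 6.62 with control siRNA and 7.72, 7.58 and 7.76 with CTNNB1 siRNA. The groups did not overlap, and the signal was 2.22-fold higher (log2 change 1.15 ± 0.10, limma, adjusted p = 0.000123). This call also held with any 1 array left out.

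**Figure D3:**
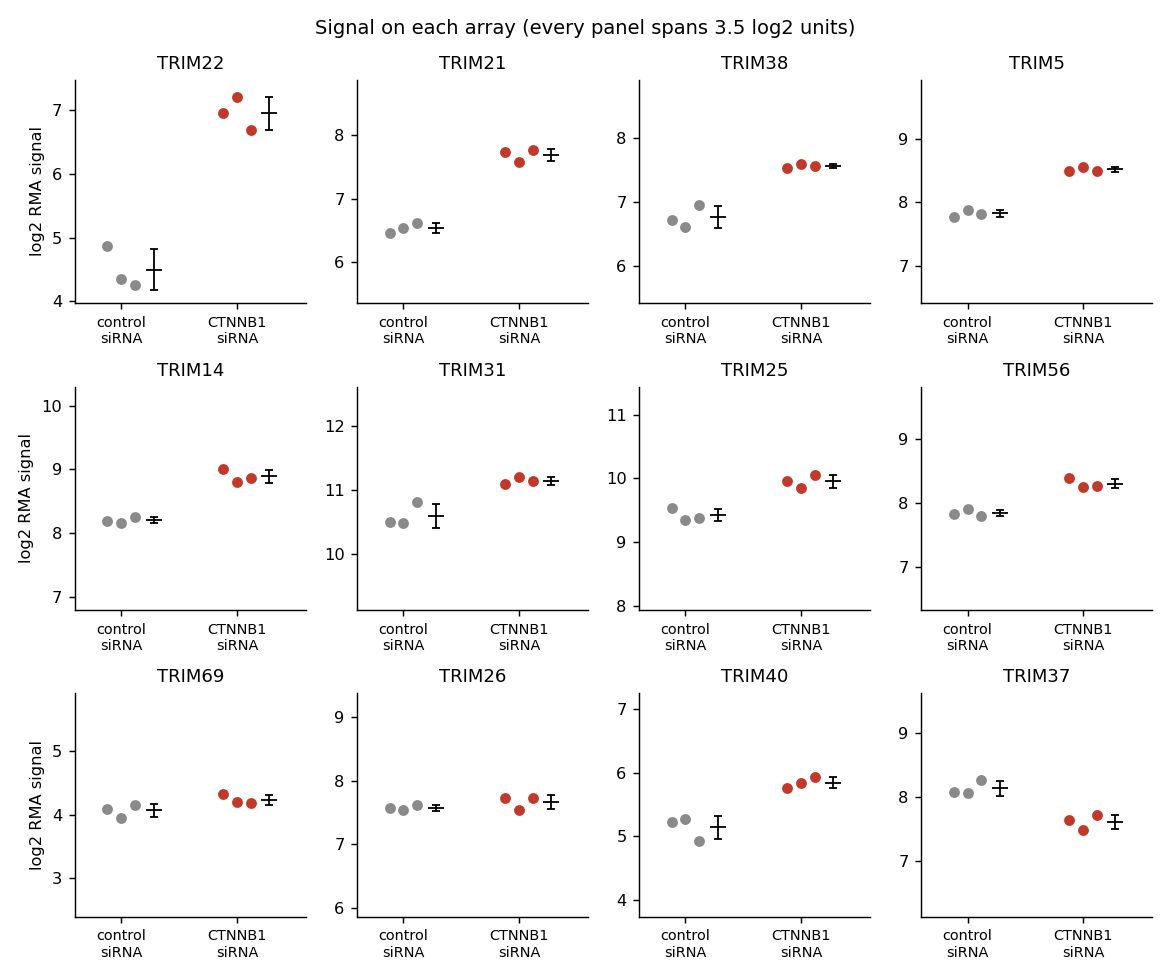
Log2 RMA signal (y axis) on each of the 6 arrays for the 10 genes of the interferon list and for TRIM40 and TRIM37. Points are arrays in the order of their replicate numbers, grey for control siRNA and red for CTNNB1 siRNA, black bars are the mean ± SD (n = 3), and every panel spans the same 3.5 log2 units. The groups are apart in the TRIM22 to TRIM56 panels and in TRIM40, overlap in TRIM26, and stand in the opposite order in TRIM37.

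Among the TRIM proteins that act on antiviral signalling, those on the interferon list accounted for the called genes. Of 12 such genes listed 10 were measured: 5 rose (TRIM14, TRIM21, TRIM25, TRIM38 and TRIM56), none fell and 5 were not called, with a median change of 0.27. TRIM38 encodes a ligase that restrains signalling from Toll-like receptors and the TNF receptor. It measured 6.71, 6.61 and 6.96 with control siRNA and 7.53, 7.59 and 7.57 with CTNNB1 siRNA. The treated arrays were nearly alike, the control arrays more spread, and the groups did not overlap (1.75-fold, log2 change 0.80 ± 0.11, limma, adjusted p = 0.00316).

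TRIM14 has no RING domain and acts as an adaptor at the mitochondrial protein MAVS, downstream of the RNA sensors. Its signal was 8.19, 8.17 and 8.26 with control siRNA and 9.01, 8.81 and 8.87 with CTNNB1 siRNA. Every treated array was above every control array, a 1.61-fold rise (log2 change 0.69 ± 0.10, limma, adjusted p = 0.00395). The calls of TRIM38 and TRIM14 held with any 1 array left out.

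TRIM25 encodes the ligase known for attaching ubiquitin to the RNA sensor RIG-I and for assisting the zinc finger antiviral protein ZAP. It measured 9.54, 9.35 and 9.39 with control siRNA and 9.96, 9.85 and 10.05 with CTNNB1 siRNA. The groups did not overlap, and the rise was 1.44-fold (log2 change 0.53 ± 0.10, limma, adjusted p = 0.0178). The call was lost without control replicate 2 (adjusted p = 0.0594), control replicate 3 (adjusted p = 0.0682) or CTNNB1 siRNA replicate 1 (adjusted p = 0.0746).

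TRIM56, a ligase that supports signalling from the DNA-sensing adaptor STING and from Toll-like receptors, gave 7.83, 7.90 and 7.80 with control siRNA and 8.38, 8.25 and 8.27 with CTNNB1 siRNA. The groups did not overlap, with a rise of 0.46 ± 0.09 log2 units (limma, adjusted p = 0.0235). This was the smallest rise that was called in the family. Only leaving out CTNNB1 siRNA replicate 3 left it called. The adjusted p was 0.108, 0.0506 and 0.0859 without control replicates 1, 2 and 3, and 0.0954 and 0.0524 without CTNNB1 siRNA replicates 1 and 2.

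The antiviral signalling genes that were not called were TRIM26, TRIM65, TRIM8, TRIM4 and TRIM27. TRIM26, which targets the transcription factor IRF3 and is on the interferon list, measured 7.57, 7.53 and 7.62 with control siRNA and 7.73, 7.54 and 7.72 with CTNNB1 siRNA. The groups overlapped, and the 95% confidence interval of the difference ran from -0.13 to 0.31, which leaves out a rise of the size seen for TRIM25. TRIM65, a ligase for the RNA sensor MDA5, had a change of 0.03 ± 0.10, TRIM8 of -0.01 ± 0.14 and TRIM4, a further RIG-I ligase, of -0.04 ± 0.09. TRIM27, a ligase and repressor first found fused to the RET kinase, measured 8.43, 8.35 and 8.57 with control siRNA and 8.15, 7.93 and 8.14 with CTNNB1 siRNA. Its arrays were lower in the treated group without overlap, as in 15.2% of all genes tested, at -0.38 ± 0.11, but it did not pass the test (limma, adjusted p = 0.0750).

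The other interferon-list gene that was not called, TRIM69, encodes a ligase that limits some RNA viruses. It measured 4.09, 3.95 and 4.16 with control siRNA and 4.33, 4.19 and 4.18 with CTNNB1 siRNA. All treated arrays were above all control arrays by a small margin, with a change of 0.16 ± 0.10 (limma, adjusted p = 0.407). Its signal lay below the median row in both groups and was not shown to be above background. Of all genes tested 10.8% had treated arrays above all control arrays.

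A run of TRIM genes in the major histocompatibility region of chromosome 6 included both of the remaining rises. In the RefSeq gene order TRIM31, TRIM40, TRIM10, TRIM15 and TRIM26 follow one another without another protein-coding gene between them. The first pair of the run rose and the next 3 were not called. TRIM31, a ligase of the stomach and intestinal epithelium that acts on MAVS and on the inflammasome, measured 10.50, 10.47 and 10.81 with control siRNA and 11.09, 11.20 and 11.14 with CTNNB1 siRNA. The groups did not overlap, with a 1.46-fold rise (log2 change 0.55 ± 0.11, limma, adjusted p = 0.0250). With 1 array left out, the call held only when that array was control replicate 3. Without control replicates 1 and 2 the adjusted p was 0.119 and 0.0764, and without CTNNB1 siRNA replicates 1, 2 and 3 it was 0.0810, 0.0789 and 0.0519. The gene has 3 rows on the array, and the other rows changed by 0.53 and 0.51. In limma over every row neither these (adjusted p = 0.103 and 0.115) nor the row used passed.

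TRIM40, also known from gut epithelium, where it dampens NF-kB signalling, measured 5.22, 5.27 and 4.93 with control siRNA and 5.76, 5.84 and 5.92 with CTNNB1 siRNA. The groups did not overlap and the change was 0.70 ± 0.12 (limma, adjusted p = 0.00855). The call held with any 1 array left out. The signal lay below the median row under control siRNA, was not shown to be above background, and is given no fold. The other rows of the gene, which hold the same values as each other, changed by 0.70. In limma over every row neither these (adjusted p = 0.0653) nor the row used passed. In the rest of the run, TRIM10, an erythroid gene, had a change of -0.003 ± 0.10 and TRIM15, a focal adhesion protein gene, of 0.15 ± 0.11. TRIM38, described above, and TRIM27 lie on the same chromosome apart from this run.

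**Figure D4:**
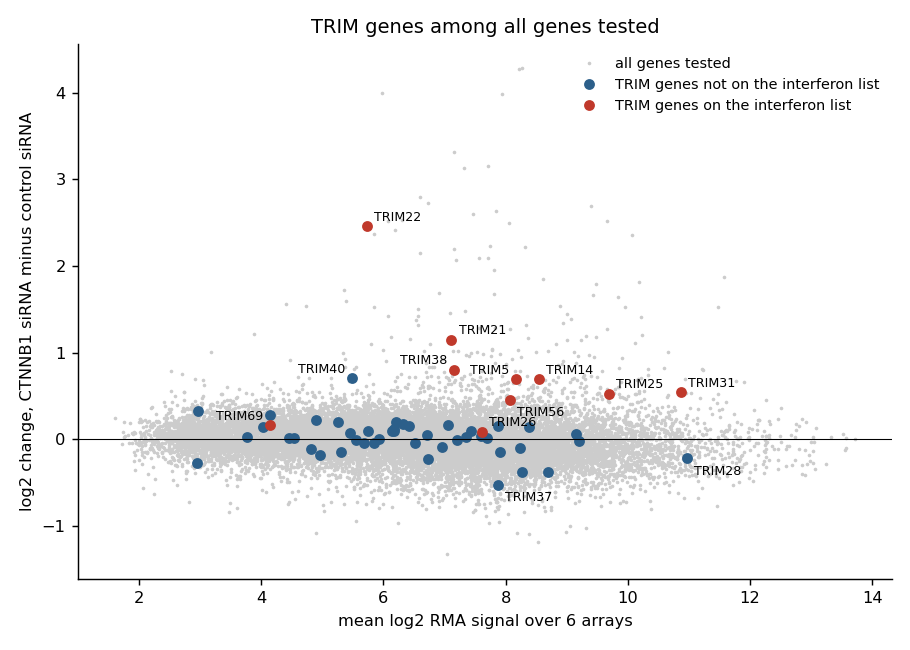
Log2 change (CTNNB1 siRNA minus control siRNA, y axis) against the mean log2 RMA signal over the 6 arrays (x axis) for all 18417 genes tested (grey), with the TRIM genes on the interferon list in red and the other TRIM genes in blue. Most blue points lie within the grey band around 0, TRIM40 lies above it and TRIM37 below, and TRIM22 has the largest change of the family at 2.45.

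TRIM37 was the member that fell. It encodes a ligase with a MATH domain that controls centrosome components and is mutated in mulibrey nanism. Its signal was 8.09, 8.07 and 8.27 with control siRNA and 7.64, 7.49 and 7.72 with CTNNB1 siRNA. All treated arrays were below all control arrays, with a change of -0.53 ± 0.11 (limma, adjusted p = 0.0211). The call was lost without control replicate 1 (adjusted p = 0.0758), control replicate 3 (0.0846), CTNNB1 siRNA replicate 1 (0.0793) or CTNNB1 siRNA replicate 2 (0.0714). Of the same group of membrane-anchored, ARF, MATH and filamin proteins, TRIM59 (0.02 ± 0.12) and TRIM45 (0.10 ± 0.12) were not called.

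The chromatin and RNA-associated subfamilies did not pass the test. The proteins with a PHD finger and bromodomain act in the nucleus. TRIM28, the corepressor of KRAB zinc finger proteins, measured 11.004, 11.046 and 11.169 with control siRNA and 11.067, 10.713 and 10.781 with CTNNB1 siRNA. One treated array lay among the control arrays, and the change was -0.22 ± 0.12 (limma, adjusted p = 0.329). TRIM33, a ligase of the TGF-beta pathway, had a change of -0.10 ± 0.10. TRIM24, a nuclear receptor cofactor and p53 ligase, had -0.02 ± 0.10, and TRIM66 -0.05 ± 0.12. None of these 4 genes was called, and all 4 changes were negative, with a median of -0.07.

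The NHL-repeat proteins bind RNA or cytoskeletal cargo through a C-terminal propeller. TRIM2, a ligase for neurofilament in neurons, measured 8.93, 8.83 and 8.91 with control siRNA and 8.58, 8.39 and 8.56 with CTNNB1 siRNA. The treated arrays were all lower, at -0.38 ± 0.10, and just missed the threshold (limma, adjusted p = 0.0579). The 3 others were not called, with positive changes: TRIM71, the stem cell protein also called LIN-41, had 0.16 ± 0.14, TRIM32, the ligase of a limb-girdle muscular dystrophy, had 0.14 ± 0.09, and TRIM3 had 0.12 ± 0.11.

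The COS-box and muscle TRIM genes, whose products bind microtubules or the sarcomere, were all measured and none of the 8 was called. Their changes ran from -0.18 ± 0.12 for TRIM36 to 0.14 ± 0.11 for TRIM42, with TRIM67 at 0.09 ± 0.16 and TRIM54 at -0.04 ± 0.12. Control signals of 7 of them lay below the median row. Among the members without a RING, TRIM14 rose as described and TRIM44 (-0.15 ± 0.12), TRIM29 (0.08 ± 0.12), TRIM16 (0.06 ± 0.09) and TRIM66 were not called. Of the genes duplicated in primates only TRIM48, TRIM50 and TRIM51 have a row with a single symbol, all below the median row, and none was called, with changes from -0.27 ± 0.14 (TRIM48) to 0.29 ± 0.27 (TRIM51) and TRIM50 at -0.14 ± 0.12. TRIM51 had the largest standard error in the family.

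Across the 45 members that were not called, changes ran from -0.38 to 0.33. For 37 of them the 95% confidence interval lay within 0.5 log2 units of 0, and for the other 8 it reached past 0.5 log2 units. In all, 20 members had a control signal below the median row of the array, and was not shown to be above background.

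Family members that carry other names were looked up beside the numbered ones. PML, the scaffold of nuclear bodies and itself an interferon-induced TRIM protein, measured 6.469, 6.531 and 6.126 with control siRNA and 7.467, 7.146 and 7.004 with CTNNB1 siRNA. The groups did not overlap, with a rise of 0.83 ± 0.15 (limma, adjusted p = 0.0121). Leaving out CTNNB1 siRNA replicate 1 ended that call (adjusted p = 0.0598). MEFV, the inflammasome protein pyrin, had a change of -0.14 ± 0.14, and the microtubule ligase genes MID1 and MID2 had -0.23 ± 0.16 and -0.15 ± 0.12. Of 6 such genes 1 rose and 5 were not called, including TRIML1 and TRIML2.

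The partners of the antiviral TRIM proteins moved in part. Of 18 measured genes of RNA and DNA sensing 7 rose, none fell and 11 were not called, with a median change of 0.20. The cytosolic RNA sensors rose: IFIH1, which encodes MDA5, by 2.10 ± 0.11 log2 units, RIGI, the sensor that TRIM25 modifies, by 1.80 ± 0.12, and DHX58, the third member of that family, by 1.42 ± 0.12. ISG15, a ubiquitin-like modifier, rose by 1.95 ± 0.14, and the adjusted p of these 4 genes in limma was at most 0.000122. MAVS, the adaptor of the RNA sensors, had a change of 0.04 ± 0.15 and the kinase gene TBK1 of 0.08 ± 0.09. Of 8 measured genes of interferon receptor signalling 3 rose, USP18 (2.21 ± 0.09), IRF9 (0.70 ± 0.09) and IRF1 (0.70 ± 0.11), and the receptor gene IFNAR2 had 0.22 ± 0.13, with a median of 0.19 over the list.

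Of the enzymes and complexes that TRIM proteins work with in every cell, no measured gene passed the test. Of 12 listed E2 ubiquitin-conjugating enzyme genes 7 were measured, and UBE2D1, UBE2D2 and UBE2D3 were not among them. None of the 7 was called in limma and 1 had an unadjusted p under 0.05. UBE2E1 was at -0.25 ± 0.09, UBE2D4 at -0.17 ± 0.11, UBE2E2 at -0.11 ± 0.14 and UBE2K at -0.09 ± 0.10. None of the 10 genes of the TRIM28 repressor complex was called either, with 4 at an unadjusted p under 0.05. Over all genes 3746 of 18417 had an unadjusted p under 0.05. In that complex 9 of 10 changes were negative and the median was -0.18. The chromatin remodeller gene CHD4 had -0.37 ± 0.10 (limma, adjusted p = 0.0695), the deacetylase gene HDAC2 -0.32 ± 0.11, CHD3 -0.25 ± 0.09 and CBX5, which encodes the heterochromatin protein HP1 alpha, -0.29 ± 0.12. Of all genes tested 8992 of 18417 changes were negative.

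**Figure D5:**
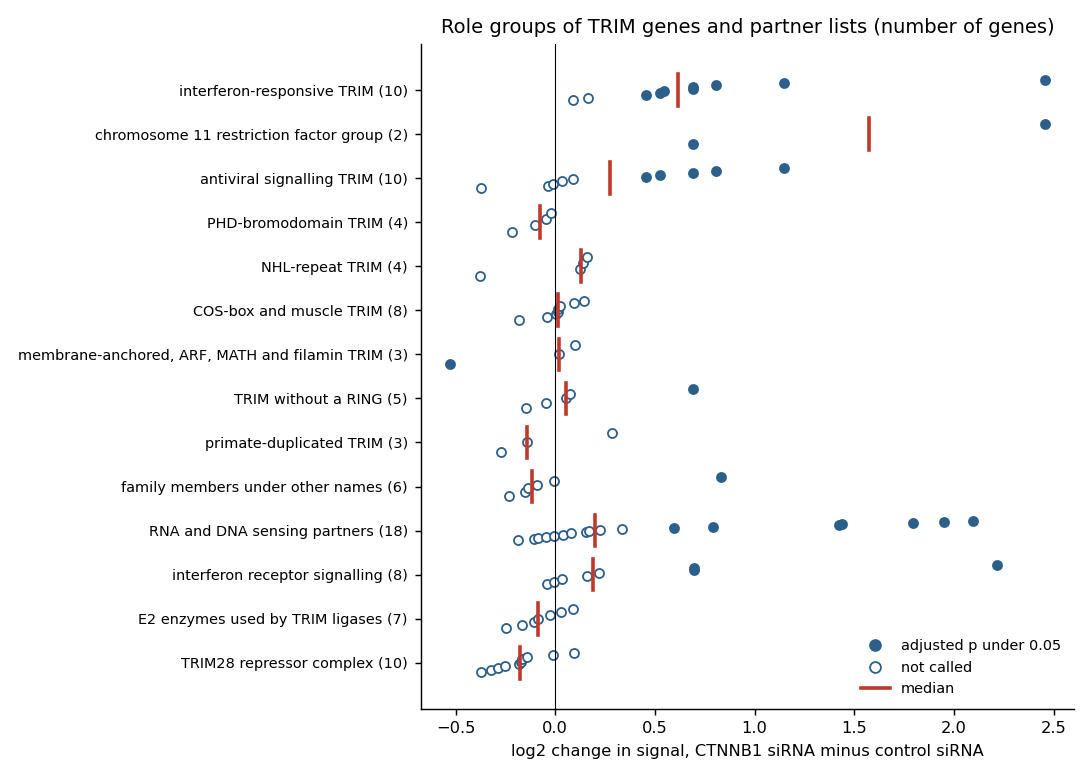
Log2 change in signal (CTNNB1 siRNA minus control siRNA, x axis) of each measured gene in the role groups of the TRIM family and in the partner lists, with the number of genes in brackets. Filled points have an adjusted p under 0.05 and red bars are medians. The filled points lie in the interferon, chromosome 11 and antiviral groups, in single genes of 3 further groups (TRIM37, TRIM14 and PML), and in the sensing and interferon receptor lists.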

How the data were processed

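The authors deposited RMA signals on a log2 scale from Affymetrix Expression Console 1.1, per the submitters' processing notes. Their range, 0.789 to 14.5, is that of log2 values. No source used here gives the authors' genome build or annotation version. The annotation gave 1 symbol to 19460 of 33297 rows, several to 1754 and none to 12083. The brightest row per gene over the 6 arrays was used (18417 genes), with no filter on dim rows. Genes were compared (two-sided) with limma 3.58.1 (lmFit, eBayes; R 4.3.3) with Benjamini-Hochberg adjustment over all genes. Scanner intensities were not used here, so no probe was tested against background, and the number of arrays limits the precision. In simulated data over 18417 genes, 67, 67 and 66 genes were changed by 0.5, 1 and 2 log2 units. The fit recovered 31.3%, 88.1% and all of them. Fewer genes were changed there than the 870 called here, so these shares need not hold for this comparison.

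The members and lists were chosen with earlier results of these data known. The interferon list (TRIM5, TRIM14, TRIM21, TRIM22, TRIM25, TRIM26, TRIM31, TRIM34, TRIM38, TRIM56 and TRIM69) came from general knowledge of the family. Named genes are CTNNB1, called members, interferon-list members, up to 4 genes per role group or partner list by smallest p, the 5 brightest members, PML, MEFV, MID1, MID2 and called markers. Others named (TRIM10, TRIM15, EPCAM, KRT8, KRT18, GKN1, TFF2, PTPRC, LYZ, MAVS, TBK1, TRIM65, TRIM8, TRIM4, TRIM27, TRIML1 and TRIML2) were added after their values were seen. By limma, 0 of 13 markers of endothelium and fibroblasts were called, and 0 had an unadjusted p under 0.05. Alternatives covered scaling, dim genes, variance model, row choice, the replicate block, the list and each array left out.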

Additional observations from a re-analysis of the deposited data

How the results depend on the processing

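The calls of TRIM21 and TRIM5 held in all 16 alternatives. TRIM members called numbered 10, of them 9 higher and 1 lower, with 8 on the interferon list, and the count on the list was again 8 under cyclic loess, median centring, a second quantile normalization, the mean of all rows and trended robust variance. A per-gene test without moderation left 2 called, both higher and on the list, with 0 lower and 111 calls over all genes (67.6% higher), and gave CTNNB1 a change of -0.77 with adjusted p = 0.0660. Testing every row of the table left 5, all on the list, with 0 lower, and 195 over all genes (70.8% higher). Members called lower numbered 2 with the replicate block and 3 with trended robust variance or without the dimmest 25% or 50% of genes. TRIM2 was added in each of these. Without the dimmest 50% TRIM22 and TRIM40 were not tested, and 7 members were called higher, with 7 on the list. In the per-gene test without moderation TRIM22 was not called (adjusted p = 0.0588). Over all genes 870 were called, with 1483 and 1861 without the dimmest 25% and 50% and 1622 with trended variance. Under cyclic loess 56.3% of calls were higher, against 43.9%. The median change of the interferon list was 0.62, with 0.69 under cyclic loess, 0.67 under quantile normalization, 0.69 without the dimmest 25% and 0.75 for the narrow list of 7 genes, of which all 6 measured rose. Without the dimmest 25% the list loses TRIM69, and the narrow list leaves out TRIM26, TRIM31, TRIM56 and TRIM69. The medians of these settings therefore cover fewer genes. The cause of the other shifts was not tested.

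Residuals of same-numbered control and CTNNB1 siRNA arrays correlated at -0.02, 0.33 and 0.22, and those of differently numbered arrays at -0.29 to 0.08. Whether the replicate numbers pair the arrays was not tested. With the replicate block 11 members and 1177 genes were called. Leaving out 1 array gave 6 to 9 members called, 6 to 8 higher, 0 to 1 lower, 5 to 7 on the list, medians of 0.58 to 0.67 on the list and -0.0013 to 0.062 off it, 283 to 877 calls over all genes (41.5% to 67.0% higher), and -0.84 to -0.71 for CTNNB1. The lowest member count, 6, was without CTNNB1 siRNA replicate 1. Some genes without a call changed sign: TRIM24 was 0.056 under cyclic loess, 0.019 under quantile normalization and -0.067 to 0.031 with 1 array left out. The leave-one-out ranges were -0.10 to 0.063 for TRIM54, -0.088 to 0.10 for TRIM59, -0.066 to 0.21 for TRIM67, -0.031 to 0.14 for TRIM29, -0.064 to 0.49 for TRIM51, -0.16 to 0.070 for TRIM66, -0.0084 to 0.17 for TRIM45 and -0.21 to 0.013 for UBE2E2.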

Other observations

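Several array rows carry more than 1 TRIM symbol and were left out of the gene comparison, and no gene is named from them. The 1 row whose 3 symbols are neighbours in the restriction factor group of chromosome 11, measured 4.65 with control siRNA and 5.12 with CTNNB1 siRNA, a change of 0.46 ± 0.14 (limma over every row, adjusted p = 0.202). None of the rows with several symbols that include a TRIM gene passed that test, and their other changes ran from -0.25 to 0.24.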
